A study of Mus musculus with 4 samples.

Results

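Glycolysis and the transcriptional response to low oxygen were followed through 32 genes in lamina propria mononuclear cells, the cell suspension prepared from the layer of connective tissue that lies beneath the epithelium of the gut. The genes are given by name, with no threshold on a measured value: 21 glucose and lactate transporters, glycolytic enzymes and regulators, and 11 genes of the hypoxia response, out of 48526 gene identifiers in the table. RNA was sequenced from 4 mouse samples. Mice of 2 samples had received wild-type CD4 cells and are labelled with pronounced signs of colitis. Mice of the other 2 had received Hobit x Blimp DKO CD4 cells, which lack both of these transcription factors (repressors that help lymphocytes persist in tissues), and are labelled with mild signs. The groups are called wild type and DKO after the cells given. Age, strain and genotype of the recipients were not given in the sources used here, nor whether a sample pools animals. Both groups received CD4 cells, so neither is an untreated control. The comparison asks how the cells of the gut wall differ when the transferred cells lack these regulators. Values are rlog, a regularized log2 expression value in which differences are shrunk, above all for genes with few reads. All 32 members passed the minimum mean rlog of 4 and are among the 13528 genes tested.

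Glycolysis turns glucose into pyruvate in the cytosol and yields ATP without oxygen; activated T cells, neutrophils and inflammatory macrophages are known for relying on it. In low oxygen the prolyl hydroxylases Egln1 and Egln3 no longer mark HIF-1alpha, the product of Hif1a, for destruction. It then pairs with ARNT and switches on genes through short DNA elements whose core reads ACGTG or GCGTG. Many glycolytic genes and the hypoxia targets listed here are known targets of this factor.

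The cell suspension held RNA of other cells beside lymphocytes, and several cell type markers differed between the groups. Ptprc, the leukocyte antigen CD45, stood at an rlog of 14.02 to 14.26 in the 4 samples. The summed level of a marker list (log2 of the sum of the members' values on the linear scale) was 14.74 to 15.00 for 8 T cell markers. Of 6 B and plasma cell markers 1 reached the minimum mean rlog of 4 for testing, Cd79b at 5.71 to 5.77, while Jchain stood at 2.04 to 2.52 and Pax5 at 0 in every sample. Of 11 neutrophil markers 11 fell in DKO, with summed levels of 15.86 and 15.94 in wild type and 14.76 and 14.28 in DKO. Of 11 monocyte and macrophage markers 9 fell (16.11 and 16.02 against 15.49 and 15.67). All 10 markers of fibroblasts and smooth muscle rose (14.96 and 14.79 against 15.92 and 15.77), as did all 9 of endothelium (11.70 and 11.50 against 12.51 and 12.59) and 3 of 5 of mast cells (11.16 and 10.94 against 12.17 and 11.95). Of 8 T cell markers 0 passed in limma (3 were lower at an unadjusted p under 0.05), with a median log2 fold change of -0.14. Of 10 epithelial markers, summed at 14.51 to 14.66, 1 rose and 0 fell, against 9.92% and 4.85% of all tested genes. The part of these cells in the results below was not tested, and fewer cells of a type cannot be told apart from less RNA per cell in such bulk samples.

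The 250 bases before the transcription start were searched for the HIF core ACGTG or GCGTG on both strands, in the RefSeq promoter windows of GRCm38.p6. Of the 32 members 29 had a window; Slc2a3, Bnip3l and Ndrg1 did not. At least 1 match stood in a window of 27 of the 29 members (93.1%), with Gpi1 and Tpi1 the exceptions. Of all 27025 genes with a window 41.5% had a match, and of tested genes with a window 59.9%. In the abundant tested genes (the 4510 with the highest mean rlog) it was 64.9% of those with a window. Counted by window, 38.6% of all 32851 windows and 84.6% of the 39 member windows held a match. The member list holds many known HIF targets, so nothing is read from its share against other genes. A match of 5 letters is a description of the sequence and not a measured binding site. The 4 windows below belong to the glycolytic member and the hypoxia member with the largest fall (Slc16a3 and Bnip3), the only member that rose (P4ha2) and a hexokinase of myeloid cells that fell (Hk3). Each is read 5′ to 3′ along the gene, with matches to the core in capitals (a match on the other strand reads CACGT or CACGC here).

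Slc16a3 (chr11:120948817-120949066, plus strand): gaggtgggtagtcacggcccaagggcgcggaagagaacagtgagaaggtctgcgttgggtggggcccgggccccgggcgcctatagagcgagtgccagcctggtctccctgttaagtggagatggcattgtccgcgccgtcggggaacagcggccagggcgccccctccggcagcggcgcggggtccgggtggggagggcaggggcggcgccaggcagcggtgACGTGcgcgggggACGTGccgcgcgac

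Bnip3 (chr7:138909507-138909756, minus strand): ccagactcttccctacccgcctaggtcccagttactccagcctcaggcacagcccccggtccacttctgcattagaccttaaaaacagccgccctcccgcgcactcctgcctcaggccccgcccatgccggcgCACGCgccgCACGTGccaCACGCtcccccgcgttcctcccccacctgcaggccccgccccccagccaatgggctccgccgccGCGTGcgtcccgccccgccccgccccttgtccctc

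P4ha2 (chr11:54100674-54100923, plus strand): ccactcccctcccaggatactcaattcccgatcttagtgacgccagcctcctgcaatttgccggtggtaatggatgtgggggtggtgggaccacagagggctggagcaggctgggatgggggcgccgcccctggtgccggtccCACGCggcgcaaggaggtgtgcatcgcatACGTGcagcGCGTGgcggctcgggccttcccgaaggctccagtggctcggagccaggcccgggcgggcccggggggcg

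Hk3 (chr13:55021386-55021635, minus strand): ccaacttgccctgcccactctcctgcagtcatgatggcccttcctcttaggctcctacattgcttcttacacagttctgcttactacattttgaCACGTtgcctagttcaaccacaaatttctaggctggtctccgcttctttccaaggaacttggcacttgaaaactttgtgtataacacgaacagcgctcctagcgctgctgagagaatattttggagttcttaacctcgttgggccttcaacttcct

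Since 27 of the 29 members with a window held matches, their presence cannot set apart members that fell, rose or did neither. Slc16a3 has 2, Bnip3 has 5 (CACGTG reads the same on both strands and counts as 2), P4ha2 has 3 and Hk3 has 1. All 7 members that fell, the 1 that rose and 19 of the 21 others with a window held at least 1.

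The glucose carrier Slc2a1, the lactate exporter Slc16a3, the myeloid hexokinase Hk3 and Pfkfb4, a regulator of phosphofructokinase, fell in DKO. Of the 12 enzymes from Gpi1 to Ldha 0 passed the test, though 11 were lower in both DKO samples (median log2 fold change of the 12 -0.23). No test compared the called genes with these enzymes. Of the 21 glycolytic members 4 fell and 0 rose in limma with Benjamini-Hochberg adjustment over all tested genes (11 were lower and 0 higher at an unadjusted p under 0.05), against 4.85% of tested genes that fell and 9.92% that rose. Among the 4510 abundant genes, where most members lie, 8.85% fell and 3.79% rose. The median log2 fold change of the 21 was -0.24, against -0.02 over all tested genes and -0.07 among the abundant genes. The median was -0.13 both without DKO replicate 1 and with quantile normalization. With no minimum on mean rlog, when 25186 genes are tested, none of the 8 calls among the 32 members passed (adjusted p from 0.0779 for Ero1l to 0.156 for Ddit4).

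**Figure D1:**
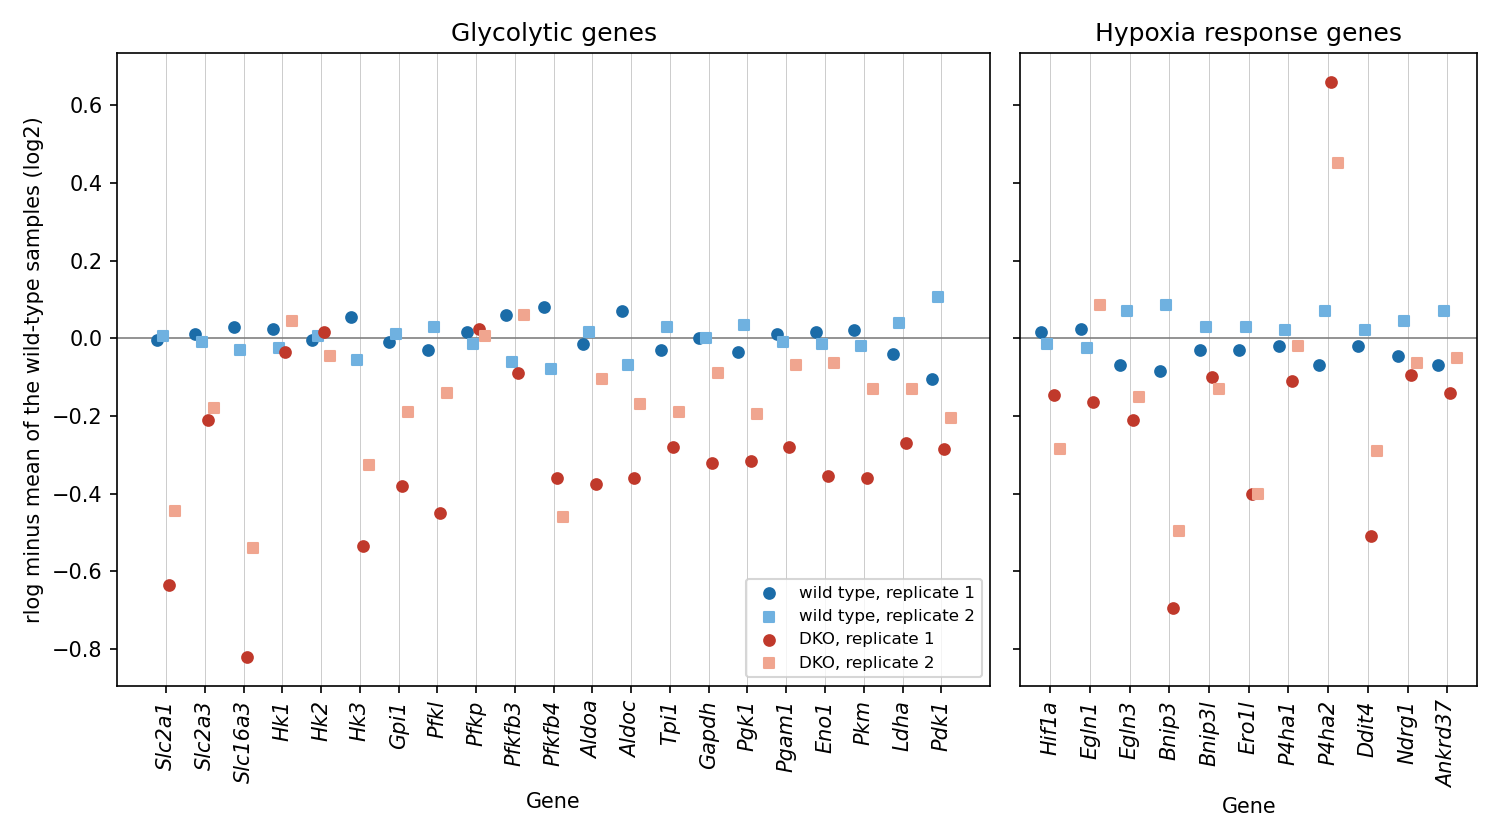
Each point is the rlog of 1 gene in 1 sample minus the mean of the 2 wild-type samples (vertical axis, log2), for 21 glycolytic genes (left) and 11 hypoxia response genes (right). Blue marks wild type, red DKO; circles and squares are replicates 1 and 2. Both DKO samples lie below both wild-type samples for 17 glycolytic genes and 7 hypoxia genes, and above them for P4ha2.

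Among transporters, Slc16a3 had the largest fall. It encodes MCT4, which exports lactate from cells with high glycolysis (ENSMUSG00000025161, GRCm38 chromosome 11, 120948480 to 120960868). In wild type its rlog was 11.76 and 11.70, and in DKO 10.91 and 11.19. The groups did not overlap, and the difference of -0.69 (SE 0.099, adjusted p = 0.000709) is a fold of 0.622. Slc2a1 encodes GLUT1, the glucose carrier of most proliferating and activated cells (chromosome 4, 119108711 to 119137983). It stood at 11.95 and 11.96 in wild type and 11.32 and 11.51 in DKO, a difference of -0.54 (SE 0.0885, adjusted p = 0.00152). The wild-type samples were nearly equal here, and DKO replicate 1 was the lowest for both transporters. Slc2a3, the high-affinity carrier GLUT3 of neurons and leukocytes, was at 10.95 and 10.93 against 10.73 and 10.76. Both DKO samples were lower, but the difference of -0.19 did not pass (adjusted p = 0.129).

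Of the 3 hexokinases, which trap glucose as glucose 6-phosphate, 1 fell and 2 did not pass. Hk3, the isozyme of granulocytes and monocytes (chromosome 13, 55005985 to 55021385), stood at 10.30 and 10.19 in wild type and 9.71 and 9.92 in DKO. It fell by 0.43 on the log2 scale (SE 0.0927, adjusted p = 0.00828 in limma), and lost its call when wild-type replicate 1 was left out (-0.38). The fall stands beside the lower neutrophil and monocyte markers given above, and a link was not tested. Hk3 was lower in DKO replicate 1, as was the monocyte and macrophage sum (15.49 against 15.67 in replicate 2). The neutrophil sum was lower in DKO replicate 2 (14.28 against 14.76 in replicate 1). Hk2, the inducible isozyme and a known HIF target, was at 11.79 and 11.80 against 11.81 and 11.75, with a difference of -0.0141 (SE 0.0798, adjusted p = 0.942). Hk1, the isozyme of most tissues, was at 10.72 and 10.67 against 10.66 and 10.74, with a difference of 0.00361 (SE 0.0787, adjusted p = 0.986). For Hk1 and Hk2 the groups overlapped in the deposited values. With quantile normalization both DKO samples were higher for each, with differences of 0.0747 and 0.0735 that did not pass (adjusted p = 0.568 and 0.596).

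Of the 12 genes from Gpi1 to Ldha, 11 were lower in both DKO samples and 0 passed in limma, with 5 lower at an unadjusted p under 0.05. The 11 differences ran from -0.29 for Pfkl to -0.17 for Pgam1. Pfkl, the liver form of phosphofructokinase, which is also abundant in phagocytes, was at 10.59 and 10.65 against 10.17 and 10.48 (adjusted p = 0.0872). Gpi1, which converts glucose 6-phosphate to fructose 6-phosphate, was at 13.17 and 13.19 against 12.80 and 12.99 (adjusted p = 0.0803). In both, DKO replicate 1 lay further from wild type than replicate 2.

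The exception was Pfkp, the platelet form of phosphofructokinase, which lay between 11.98 and 12.02 in all 4 samples (difference 0.0184, SE 0.0804, adjusted p = 0.924). Its groups overlapped. Aldoa, the main aldolase, which splits fructose bisphosphate, stood at 13.75 and 13.78 against 13.39 and 13.66, and Aldoc, the brain form, at 7.37 and 7.23 against 6.94 and 7.13. The differences were -0.24 and -0.26, with adjusted p = 0.214 and 0.168. For both, DKO replicate 1 was the lowest of the 4 samples.

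Gapdh, the dehydrogenase often used as a reference gene, was at 13.58 in both wild-type samples and at 13.26 and 13.49 in DKO (difference -0.20, adjusted p = 0.266). Pgk1, the first ATP-yielding kinase, was at 11.80 and 11.87 against 11.52 and 11.64 (-0.26, adjusted p = 0.0675), the smallest p among the core enzymes. Ldha, which turns pyruvate into lactate and restores NAD+, was at 14.03 and 14.11 against 13.80 and 13.94 (-0.20, adjusted p = 0.27). The remaining core genes, Tpi1 (triose phosphate isomerase, -0.23), Pgam1 (phosphoglycerate mutase, -0.17), Eno1 (enolase, -0.21) and Pkm (pyruvate kinase, -0.24), had adjusted p = 0.0989, 0.28, 0.231 and 0.208. Both DKO samples were lower for each of these 7 genes.

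DKO replicate 1 stood further from wild type than replicate 2 for most glycolytic genes. Replicate 2 was above replicate 1 in 18 of 21, with a median gap of 0.18, against 50.9% of all tested genes and 61.2% of the abundant genes. The gap between the DKO samples was wider than that between the wild-type samples in 18 of 21, against 56.0% of all tested genes. In lists taken up below, replicate 2 was also above replicate 1 in 14 of 16 genes of the tricarboxylic acid cycle. The counts were 6 of 7 for pentose phosphate genes and 6 of 7 for cell division genes. They were 12 of 31 for other genes of glucose and pyruvate handling and 22 of 41 for further hypoxia genes. Without DKO replicate 2 the median log2 fold change of the 21 glycolytic genes was -0.32. Without DKO replicate 1 it was -0.13, and with all samples -0.24. Over all tested genes the medians were -0.0229, -0.0152 and -0.0219 in the same order. With either DKO replicate left out the DKO group is 1 sample, whose spread is taken from the wild-type samples. Among the marker lists, DKO replicate 2 was above replicate 1 in 8 of 8 T cell markers, in 8 of 11 monocyte and macrophage markers and in 4 of 11 neutrophil markers; their part in this gap was not tested.

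Both DKO samples were lower than both wild-type samples in 17 of 21 glycolytic members, against 30.3% of all tested genes and 44.1% of the abundant genes. The scaling bears on this count. With quantile normalization it was 12 of 21, and 3 (Hk1, Hk2 and Pfkp) had both DKO samples higher, beside 28.0% lower in the abundant genes. The differences of Pkm and Ldha were then -0.0394 and -0.0247. The 4 called genes kept their direction and passed under both scalings tried.

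**Figure D2:**
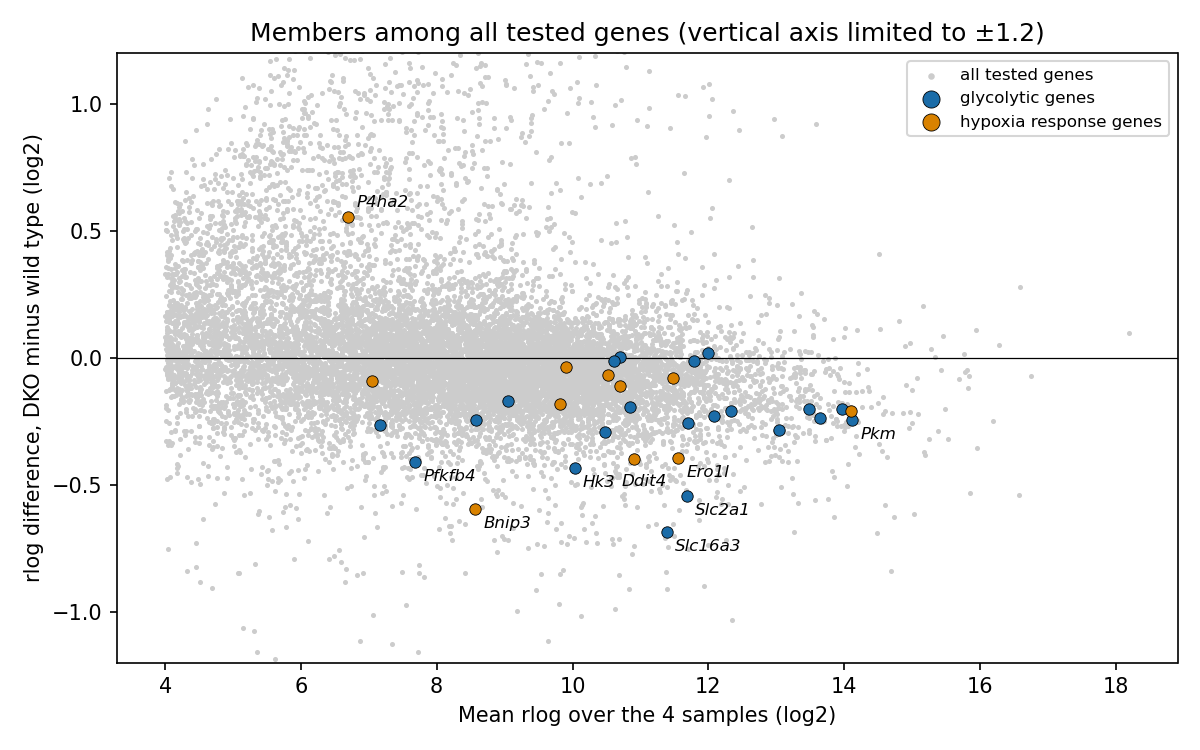
Each point is a gene: the horizontal axis is its mean rlog over the 4 samples and the vertical axis the rlog difference, DKO minus wild type, both on the log2 scale. Grey points are all tested genes (123 lie beyond the vertical limits), blue the glycolytic and orange the hypoxia members; Slc16a3, Slc2a1 and Bnip3 lie lowest and P4ha2 highest among the members.

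Of the 3 regulators of glycolytic flux, 1 fell and 2 did not pass. Pfkfb4 and Pfkfb3 make or remove fructose 2,6-bisphosphate, the activator of phosphofructokinase. Pfkfb4 (chromosome 9, 108991778 to 109032228) was at 7.97 and 7.81 in wild type and 7.53 and 7.43 in DKO. It fell by 0.41 on the log2 scale (SE 0.105, adjusted p = 0.0227), with DKO replicate 2 the lower one here, and lost its call when wild-type replicate 1 was left out (-0.33, adjusted p = 0.189). Without that sample the count of glycolytic falls was 2, Slc2a1 and Slc16a3. Pfkfb3, at 10.68 and 10.56 against 10.53 and 10.68, had overlapping groups (-0.0136, adjusted p = 0.95). With quantile normalization the log2 difference of Pfkfb3 was 0.053, which did not pass. Pdk1, which blocks the entry of pyruvate into mitochondria, was at 8.60 and 8.81 against 8.42 and 8.50 (-0.25, adjusted p = 0.133).

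In the hypoxia response, 3 target genes fell and 1 rose, while 0 of the 3 genes of the regulator and its sensors passed in limma (0 at an unadjusted p under 0.05). The 3 falls of 11 members stand beside 4.85% of all tested genes, and the 1 rise beside 9.92%. Among the abundant genes, where most of the 11 lie, 8.85% fell and 3.79% rose. The median over the 11 was -0.11, and -0.0438 with quantile normalization. Both DKO samples were lower in 7 and higher in 1, against 30.3% and 25.0% of all tested genes. Of the abundant genes 44.1% were lower in both DKO samples. With quantile normalization 5 of the 11 members were lower and 1 higher, beside 28.0% lower in the abundant genes.

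Hif1a was among the most abundant members, at 14.22 and 14.19 in wild type and 14.06 and 13.92 in DKO. Both DKO samples were lower, and the difference of -0.21 (SE 0.109) did not pass (adjusted p = 0.254); it was -0.029 with quantile normalization. The HIF-1alpha protein is controlled mainly by its breakdown, which RNA does not show. Egln3, a sensor that HIF itself induces, was at 9.83 and 9.97 against 9.69 and 9.75 (-0.18, adjusted p = 0.197). Egln1, the main oxygen sensor, was at 9.95 and 9.90 against 9.76 and 10.01, and its groups overlapped (-0.0377, adjusted p = 0.854). With quantile normalization the log2 difference of Egln1 was 0.00876, which did not pass.

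Among the targets, Bnip3, which tags mitochondria for removal (chromosome 7, 138890836 to 138909519), had the largest fall. It stood at 8.78 and 8.95 in wild type and 8.17 and 8.37 in DKO, a difference of -0.60 (SE 0.105, adjusted p = 0.00246) and a fold of 0.662. Its relative Bnip3l (Nix), with the same role, was at 10.72 and 10.78 against 10.65 and 10.62, and the difference of -0.11 did not pass (adjusted p = 0.396). Ero1l, an oxidase that forms disulfide bonds in the endoplasmic reticulum (chromosome 14, 45283087 to 45318771), was at 11.72 and 11.78 against 11.35 in both DKO samples, to 2 decimals. It fell by 0.40 (SE 0.0787, adjusted p = 0.00535), with the replicates of each group closer than 0.1. Ddit4 (REDD1), an inhibitor of mTORC1 that stress and glucocorticoids also induce (chromosome 10, 59949669 to 59951834), was at 11.08 and 11.12 against 10.59 and 10.81. It fell by 0.40 (SE 0.0895, adjusted p = 0.0109). Without wild-type replicate 2, Ero1l and Ddit4 did not pass (-0.37 and -0.38, adjusted p = 0.0688 and 0.0648), and 1 fall, Bnip3, was left among the 11.

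P4ha2 was the only one of the 32 members that rose. It encodes a catalytic subunit of the collagen prolyl 4-hydroxylase (chromosome 11, 54100095 to 54131665), the enzyme that makes collagen helices stable. Its rlog was 6.35 and 6.49 in wild type and 7.08 and 6.87 in DKO, a difference of 0.55 (SE 0.12, adjusted p = 0.00907) and a fold of 1.47. The rise stands beside that of 10 of 10 markers of fibroblasts and smooth muscle, and a link was not tested. P4ha2 had the lowest mean rlog of the 32 members. With wild-type replicate 1 left out it lost its call (0.48, adjusted p = 0.0609). P4ha1, the other catalytic subunit, was at 10.53 and 10.57 against 10.44 and 10.53, and its groups overlapped narrowly (-0.0667, adjusted p = 0.659).

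The remaining targets were close in both groups. Ndrg1, a stress and differentiation gene, was at 11.48 and 11.57 against 11.43 and 11.46 (-0.0814, adjusted p = 0.582). Ankrd37, a small ankyrin repeat protein, was at 7.02 and 7.16 against 6.95 and 7.04 (-0.0904, adjusted p = 0.668). Of the 8 targets, then, 3 fell, 1 rose and 4 did not pass.

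**Figure D3:**
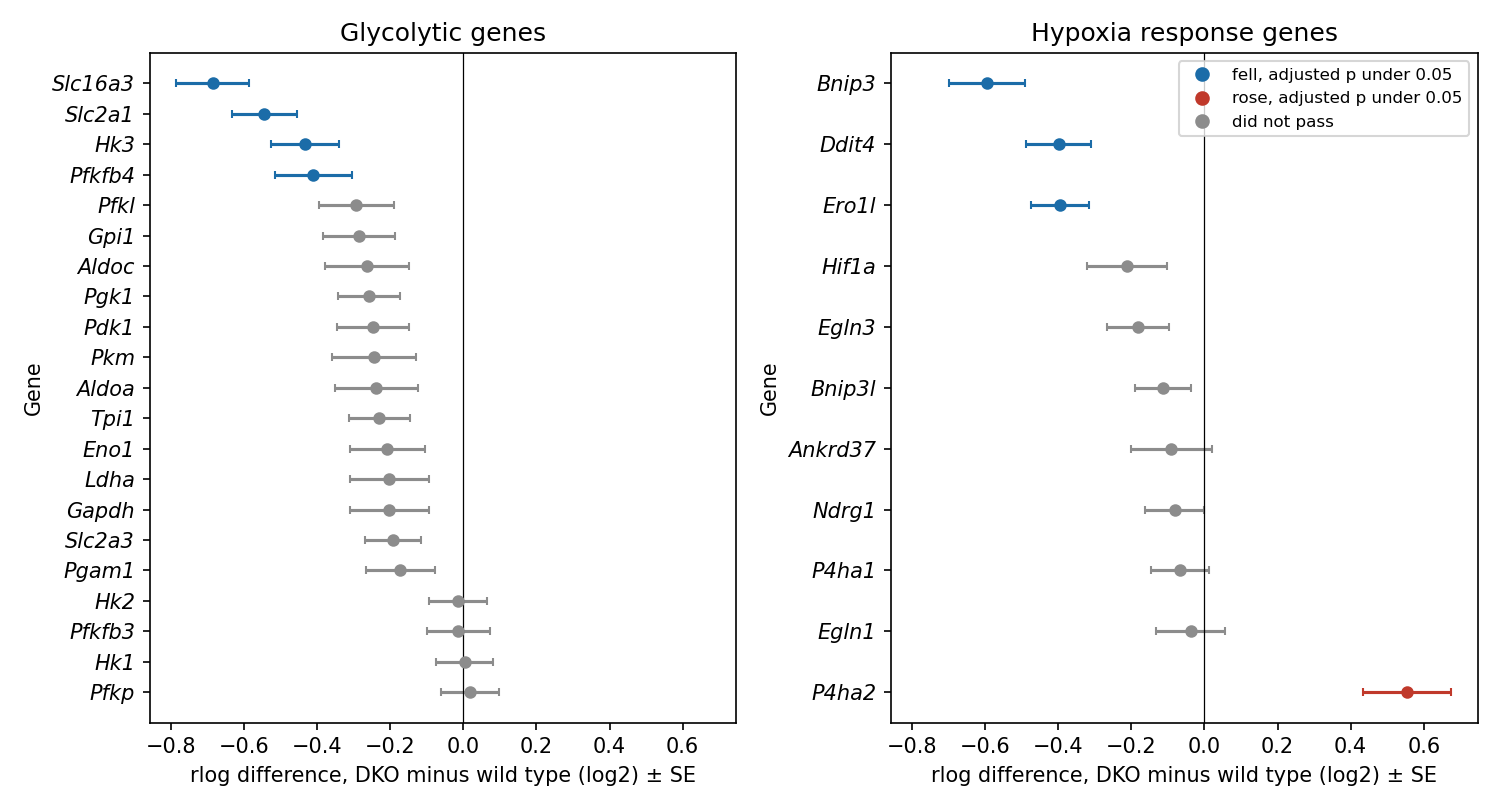
The rlog difference, DKO minus wild type (horizontal axis, log2), is plotted with its SE from limma for each gene, ordered by size, with glycolytic genes left and hypoxia genes right. Blue genes fell and the red gene, P4ha2, rose at an adjusted p under 0.05; grey genes did not pass, and most of them also lie left of 0.

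Related genes were also set against each other within a sample, a difference that does not depend on the scaling of whole libraries by a constant. These differences are described without a test, since 2 samples against 2 cannot go below p = 0.33 in an exact two-sided permutation test. Hk3 minus Hk1, as a difference of rlog values, was -0.42 and -0.48 in wild type and -0.95 and -0.82 in DKO. Slc2a3 minus Slc2a1 was -1.0 and -1.04 against -0.59 and -0.75, Bnip3l minus Bnip3 1.95 and 1.83 against 2.48 and 2.25, and P4ha2 minus P4ha1 -4.18 and -4.08 against -3.35 and -3.66. In these 4 pairs the groups did not overlap, nor did they in Pfkp minus Pfkl (1.42 and 1.33 against 1.86 and 1.52) and Pfkfb4 minus Pfkfb3 (-2.71 and -2.74 against -3.00 and -3.25). For Hk2 minus Hk1 and Aldoc minus Aldoa they did, and for Egln3 minus Egln1 the DKO values of -0.07 and -0.26 overlapped with -0.11 and 0.07. Groups without overlap in 6 of 9 pairs stand beside 30.3% of single tested genes with both DKO samples lower and 25.0% with both higher (nothing is read from this count).

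Levels of related genes were set against each other per length, by taking log2 of the median length in kilobases of a gene's protein-coding transcripts from its rlog. On that scale Hk2 was above Hk1 by 0.86 to 1.0 and Pfkp above Pfkl by 1.46 to 1.99 in the 4 samples. Aldoc minus Aldoa was -7.12 to -6.95, and Slc2a3 minus Slc2a1 -1.32 to -0.87. The order of Hk3 and Hk1 turned with the length used: Hk3 minus Hk1 was -0.63 to -0.09 per transcript length, and 0.26 to 0.79 per length of all annotated exons. The other 4 pairs here kept their order per length of all annotated exons, but not their distance: Hk2 minus Hk1 was then 1.52 to 1.66, Pfkp minus Pfkl 0.33 to 0.85, Aldoc minus Aldoa -6.72 to -6.55 and Slc2a3 minus Slc2a1 -2.08 to -1.64.

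**Figure D4:**
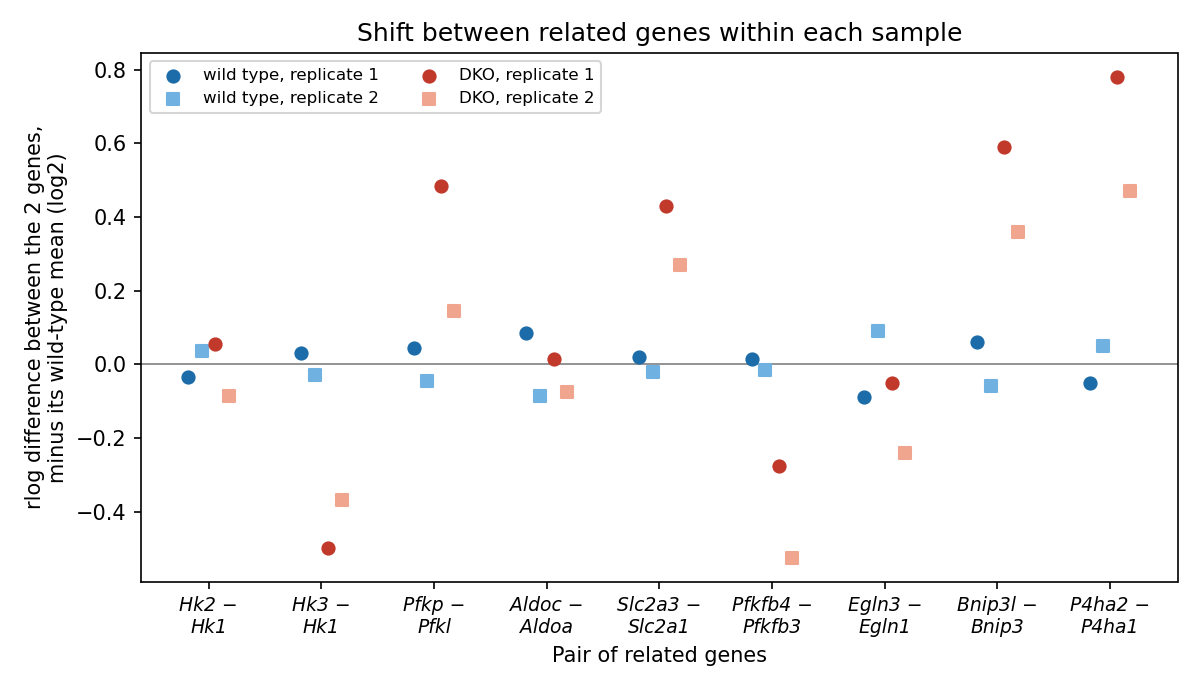
For 9 pairs of related genes the vertical axis is the rlog difference between the 2 genes in a sample, minus its mean in the wild-type samples (log2). Circles and squares are replicates 1 and 2, blue is wild type and red DKO; in 6 pairs, such as Hk3 and Hk1 or Bnip3l and Bnip3, the DKO samples lie apart from the wild-type samples.

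Other genes of the same pathways were taken from lists of genes that are no members. Of 31 tested genes of glucose and pyruvate handling 1 rose and 1 fell, against 9.92% and 4.85% of all tested genes. Pdk4, a kinase that blocks pyruvate oxidation when fatty acids are burnt, was at 6.45 in both wild-type samples and at 7.02 and 6.85 in DKO (0.49, SE 0.113, adjusted p = 0.0131). The call was lost when either wild-type replicate 1 or 2 was left out and with quantile normalization (adjusted p = 0.053, 0.0605 and 0.0512). Adpgk, an ADP-dependent glucokinase, was at 9.48 and 9.66 against 9.24 and 9.10 (-0.40, SE 0.094, adjusted p = 0.0145), and its call ended when wild-type replicate 2 was left out (adjusted p = 0.164).

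Of 41 further tested genes of the hypoxia response 5 rose and 7 fell. Of all tested genes 9.92% rose and 4.85% fell, and of the abundant genes 3.79% and 8.85%. Loxl2, for one, stood at 8.20 and 8.07 in wild type and at 9.23 and 9.18 in DKO. The rises were Loxl2 (1.07, adjusted p = 3e-05), Plod2 (0.73, adjusted p = 0.00203), Plod1 (0.49, adjusted p = 0.00425), Lox (0.38, adjusted p = 0.0224) and Epas1 (0.53, adjusted p = 0.00137). Loxl2 and Lox encode lysyl oxidases, Plod1 and Plod2 lysyl hydroxylases, and Epas1 the HIF-2alpha of endothelium and other cells. Plod1 and Lox are named after their values were seen. The 5 rises stand beside those of 10 of 10 fibroblast and smooth muscle markers and 9 of 9 endothelial markers, and a link was not tested. Lox lost its call with wild-type replicate 2 or DKO replicate 1 left out (adjusted p = 0.163 and 0.0823). The falls with the smallest p were Vegfa, the vascular growth factor (-0.46, adjusted p = 0.0129), Mxi1, an antagonist of MYC (-0.41, adjusted p = 0.0166), and Cited2, which competes with HIF for its coactivator (-0.32, adjusted p = 0.026). The count of falls was 2 without either wild-type sample, 4 without DKO replicate 1, and 3 without the variance trend or with quantile normalization. Leaving out wild-type replicate 1 ended the calls of Vegfa and Mxi1 (adjusted p = 0.104 for each), and Cited2 did not pass without either wild-type sample (adjusted p = 0.168 and 0.0921) or DKO replicate 1 (adjusted p = 0.0751).

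The pentose phosphate pathway, which branches off after hexokinase and yields NADPH for the oxidative burst, was lower in both DKO samples for 7 of 7 genes. The share lower in both was 30.3% of all tested genes and 44.1% of the abundant genes. Of the 7 genes Rpe, Pgd and Taldo1 fell (-0.33, -0.32 and -0.32, adjusted p = 0.0173, 0.02 and 0.0206), against 4.85% of all tested genes and 8.85% of the abundant genes. The median of the 7 was -0.31, or -0.18 without DKO replicate 1. Without wild-type replicate 1 or 2 the count of falls was 0, without DKO replicate 2 it was 6, and with quantile normalization 1. Of 16 genes of the tricarboxylic acid cycle, which burns pyruvate in mitochondria, 0 passed in limma (3 were lower at an unadjusted p under 0.05); their median was -0.0626, and the sign of that median changed with the scaling. Of 7 cell division genes 0 passed either (4 were lower at an unadjusted p under 0.05), with a median of -0.19.

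Exons of some members overlap another annotated gene on the opposite strand. Among the 8 called members these are Hk3 (34 bases with Unc5a, at a mean rlog of 5.42), Slc2a1 (105 bases with Gm12868, at 0.00) and Bnip3 (504 bases with Gm45507, at -0.62), and the partners lay far below the members. Several glycolytic genes also have near-identical processed copies in the genome, so reads of Gapdh, Pgk1, Ldha, Aldoa, Tpi1, Pkm and Eno1 may be split among copies, depending on the counting. Eno1b, a copy of Eno1, had a mean rlog of 0.56 in wild type and 0.54 in DKO.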

How the data were processed

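Stranded mRNA libraries were made from lamina propria mononuclear cells, per the labels' protocols. The authors deposited log2 values called rlog in the table's name, which is DESeq2's regularized log2; DESeq2 is named in the submitters' processing notes. Of other tools, the same notes list STAR 2.5.4a, featureCounts, Subread 1.5.2, BWA 0.7.14-r1136, cutadapt 1.9.1 and bcl2fastq 2.17.1.14, with the build GRCm38. Not given in the sources used here: their roles, the annotation release and the strand setting of the counting. The rlog transformation scales libraries and pulls each gene towards its mean, most where reads are few, so differences of low genes are understated. Depth per sample is unknown, so no count test or counting interval was made. A further 2 columns could be matched to no labelled sample and stayed out of all steps, though they may have entered the shrinkage.

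Of 48526 gene identifiers, 48144 were matched to GENCODE M21 (GRCm38), and all 32 members were found by symbol. Tests covered the 13528 genes whose mean rlog reached 4, with group as the only term, in limma 3.58.1 (R 4.3.3) with a mean-variance trend (8.9 prior and 2 residual degrees of freedom), two-sided, with Benjamini-Hochberg adjustment over all tested genes and a threshold of 0.05. Tables and figures were made in matplotlib 3.10.9 and pandas 2.3.3 under Python 3.11.15. The fit was also run on simulated data with independent normal noise. These do not mimic the rlog shrinkage or replicates that are not separate animals, so nothing is concluded from that run. The members were chosen, and the other lists written, with earlier results of these data known. All members are named; of the other pathway lists, up to 3 called genes with the smallest p in each direction are named, and a further 2 after their values were seen. Alternatives were no filter, a mean rlog of at least 6, no trend, robust variance, median centring, quantile normalization, sample weights and leaving out each sample. Replicate numbers follow accession order and pair no samples. No source used here says that replicates were separate animals; the spread behind each p-value may then be technical.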

Additional observations from a re-analysis of the deposited data

How the results depend on the processing

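All 32 members kept their side of the threshold with a minimum mean rlog of 6, no trend, robust variance, median centring, quantile normalization, sample weights and without DKO replicate 1. With no filter, where 25186 genes were tested, all 8 calls among members were lost (0 falls and 0 rises in each list), with 25 falls and 181 rises over all tested genes, and the other lists gave 0 falls and 0 rises, except 1 rise among the further hypoxia genes. With that minimum at 6, 878 genes rose. Leaving out single samples gave 324 to 1222 falls of all tested genes, 2 to 12 falls of glycolytic members, and 1 to 3 falls and 0 to 1 rises of hypoxia members. For genes that are no members it gave 0 to 3 falls and 0 to 2 rises in glucose handling, 2 to 10 falls in the hypoxia response, 0 to 6 in the pentose phosphate pathway and 0 to 1 in the tricarboxylic acid cycle. Rises in glucose handling numbered 2 with no trend or robust variance and 0 with quantile normalization. Falls of further hypoxia genes numbered 3 with no trend or quantile normalization, of pentose phosphate genes 1 with quantile normalization and of the tricarboxylic acid cycle 1 with median centring. The median of the latter turned to 0.00808 with quantile normalization and lay between -0.11 and 0.00857 with single samples left out. Signs of uncalled differences near 0 (Hk1, Hk2, Pfkfb3, Egln1) turned in some settings. The cause of these differences between settings was not tested. With no filter the variance trend was also fitted anew over the 25186 genes, so more than the number of tests changed. No paired analysis was possible because the replicate numbers follow only the order of the entries. Depth is unknown, and with 2 samples a group small differences of core enzymes may not be detectable.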
